A study of Homo sapiens with 191 samples.

Results

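The genes described here are 10 adaptors and ubiquitin regulators that act below the receptor CD40 and the viral protein LMP1: TRAF1, TRAF2, TRAF3, TRAF5, TRAF6, BIRC2, BIRC3, TNFAIP3, TNIP1 and CYLD. They were listed by name, 10 of 20090 protein-coding genes, and chromatin accessibility around each was read from its body plus 50 kb on each side. Of the 50000 accessible regions in the list, 85 distal and 38 promoter regions had their centre in at least 1 of these windows. The measurement was ATAC-seq, in which a transposase inserts sequencing adapters into open chromatin, on single cells of GM12878, an established human B lymphoblastoid line that carries the Epstein-Barr virus. The cells carried no antibody stain and received no treatment named in the labels. They were fixed, permeabilised and transposed together, and then sorted singly into 2 plates, with 96 libraries from plate 1 and 95 from plate 2 covered here. All libraries form 1 group of 1 cell line, and the authors called regions on pooled cells. The list therefore holds neither values of single cells nor replicates nor another condition, and no test across samples could be made. The score of a region is the -log10 of the authors' q-value, for which a higher value stands for a stronger call.

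CD40 and LMP1 both signal through cytoplasmic tails that bind TRAF proteins, trimeric adaptors of which most carry a RING domain. TRAF2 brings in the ubiquitin ligases cIAP1 and cIAP2, encoded by BIRC2 and BIRC3, and together with TRAF3 these ligases hold the kinase NIK at a low level, which keeps the non-canonical NF-kB pathway off until a receptor draws the complex away. A20 (encoded by TNFAIP3), ABIN-1 (TNIP1) and the deubiquitinase CYLD bind or cut ubiquitin chains and limit canonical NF-kB signalling, and several of these genes are themselves known targets of NF-kB.

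Matches to the NF-kB consensus stood in the promoter regions of 7 members, and the sequences below show matches of 6 of them, all but TRAF1. They are the hg19 reference sequence inside a listed region, not sequence read from the libraries, chosen to leave out annotated exons of any gene. Each runs 5′ to 3′ on the strand of the gene, and capitals mark the bases of the NF-kB match.
TNFAIP3 promoter, chr6:138188201-138188350, plus strand: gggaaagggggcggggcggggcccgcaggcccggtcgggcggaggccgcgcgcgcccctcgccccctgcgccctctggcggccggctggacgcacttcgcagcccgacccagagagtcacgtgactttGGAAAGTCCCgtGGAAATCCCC
BIRC3 promoter, chr11:102187996-102188145, plus strand: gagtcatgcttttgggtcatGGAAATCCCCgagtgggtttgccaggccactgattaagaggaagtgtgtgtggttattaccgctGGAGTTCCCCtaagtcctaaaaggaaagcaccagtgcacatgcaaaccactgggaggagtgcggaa
TRAF3 promoter, chr14:103243636-103243785, plus strand: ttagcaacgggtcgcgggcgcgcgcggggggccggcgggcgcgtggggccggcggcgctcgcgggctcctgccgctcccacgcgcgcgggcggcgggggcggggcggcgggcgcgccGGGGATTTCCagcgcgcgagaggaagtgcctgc
CYLD promoter, chr16:50775728-50775877, plus strand: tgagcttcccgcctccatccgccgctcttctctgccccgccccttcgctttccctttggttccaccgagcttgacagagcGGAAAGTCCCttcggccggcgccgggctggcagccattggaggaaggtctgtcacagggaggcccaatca
TRAF2 internal start site, chr9:139796932-139797081, plus strand: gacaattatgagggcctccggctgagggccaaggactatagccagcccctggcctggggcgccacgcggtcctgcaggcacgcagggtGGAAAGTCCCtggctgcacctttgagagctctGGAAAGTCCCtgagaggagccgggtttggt
TNIP1 upstream start sites, chr5:150466728-150466877, minus strand: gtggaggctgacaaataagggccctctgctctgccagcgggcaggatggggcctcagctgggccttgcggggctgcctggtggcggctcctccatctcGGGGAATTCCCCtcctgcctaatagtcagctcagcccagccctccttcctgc
TNIP1 outermost start site, chr5:150473678-150473827, minus strand: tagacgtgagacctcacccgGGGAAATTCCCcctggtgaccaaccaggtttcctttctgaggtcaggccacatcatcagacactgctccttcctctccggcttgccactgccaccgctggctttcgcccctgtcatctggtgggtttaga

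The next set shows matches in distal regions, further than 1 kb from every start site of a protein-coding gene.
TNFAIP3, 3′ of the gene, chr6:138248964-138249043, plus strand: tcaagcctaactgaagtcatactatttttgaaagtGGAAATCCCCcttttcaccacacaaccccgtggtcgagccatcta
TNIP1 intron of longer transcripts, chr5:150463034-150463113, minus strand: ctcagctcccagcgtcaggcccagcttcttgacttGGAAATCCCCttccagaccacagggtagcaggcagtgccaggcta
BIRC2 upstream, chr11:102216839-102216918, plus strand: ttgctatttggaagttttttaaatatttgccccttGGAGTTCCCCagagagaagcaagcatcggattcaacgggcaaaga
TRAF3 intron 1, chr14:103285566-103285645, plus strand: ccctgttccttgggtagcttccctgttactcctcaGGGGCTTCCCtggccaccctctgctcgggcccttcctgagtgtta
TRAF1 intron 3, chr9:123684067-123684116, minus strand: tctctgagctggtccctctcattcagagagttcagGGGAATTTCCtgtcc
CYLD window, inside NOD2, chr16:50731960-50732039, plus strand: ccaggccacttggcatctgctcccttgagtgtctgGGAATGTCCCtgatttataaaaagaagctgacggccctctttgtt

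TRAF5 and TRAF6 had no match anywhere in their windows, and the middle of the strongest TRAF5 promoter region and the intronic end of that of TRAF6 are given for comparison.
TRAF5 promoter, chr1:211500975-211501124, plus strand: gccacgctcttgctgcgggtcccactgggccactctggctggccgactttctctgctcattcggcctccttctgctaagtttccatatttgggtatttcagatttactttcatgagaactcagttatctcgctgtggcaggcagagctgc
TRAF6 promoter, chr11:36531501-36531597, minus strand: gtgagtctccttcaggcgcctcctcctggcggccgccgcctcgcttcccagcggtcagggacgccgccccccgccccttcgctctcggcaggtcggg

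All 10 members had a region centred within 1 kb of at least 1 of their transcription start sites (TSSs), whereas 57.2% of all protein-coding genes did. At the level of single TSSs, 53 of the 87 distinct annotated positions of the members had such a region (60.9%), against 41.6% of all TSSs of protein-coding genes. Every member had at least 1 TSS without a region. BIRC2 had a region at 8 of 10 TSSs, BIRC3 at 4 of 5, TNFAIP3 at 7 of 9 and TNIP1 at 11 of 17, while TRAF3 had one at 5 of 13 and TRAF2 at 3 of 8. For TRAF3 the 5 positions are served by 1 region at the start of the gene, and the 8 TSSs without a region lie at least 50592 bp further into it. Neighbouring TSSs share regions, so these counts are not independent.

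The strongest promoter regions of the members scored from 24.3 to 1893.6. CYLD had the highest, 1893.6, followed by BIRC3 with 1226.8 (rank 414 of 50000) and BIRC2 with 680.2 (rank 1211). TNIP1 came next with 216.3, then TRAF6 with 188.7, TNFAIP3 with 145.5, TRAF5 with 98.8, TRAF1 with 82.1, TRAF2 with 55.8 and TRAF3 with 24.3. The median of these 10 values was 167.1, and that over all genes with a promoter region was 129.6. All promoter regions in the list had a median of 64.3 with quartiles of 28.6 and 188.7, so the strongest region of TRAF3 lay under the lower quartile and those of CYLD, BIRC3, BIRC2 and TNIP1 above the upper one. The 5 TRAF genes had promoter scores from 24.3 to 188.7 and the 3 genes CYLD, TNIP1 and TNFAIP3 from 145.5 to 1893.6, with TNFAIP3 below TRAF6. A pooled list gives no error for a score, so neighbours in this order cannot be told apart or ranked beyond this list.

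**Figure D1:**
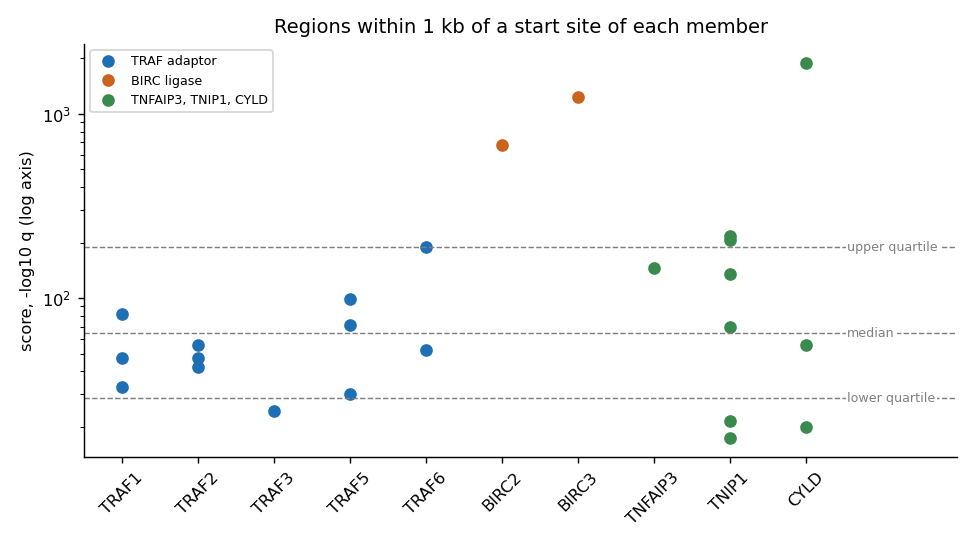
Score (-log10 q, log axis) of every region within 1 kb of a TSS of each member, coloured by role. Dashed lines give the quartiles of all promoter regions in the list, 28.6, 64.3 and 188.7. CYLD, BIRC3 and BIRC2 stand highest, and the single TRAF3 region lies under the lower quartile.

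The number of regions around the genes followed another order. TNIP1 had 31 regions in its window and TRAF1 24, BIRC3 17, BIRC2 16, TRAF2 and CYLD 10 each, TRAF3 9, TRAF5 8, TNFAIP3 7 and TRAF6 6. Per 100 kb of window, TNIP1 had 18.94 regions (exact Poisson 95% interval 12.87 to 26.89) and TRAF1 18.93 (12.13 to 28.17), more than 99.8% of protein-coding genes in each case. BIRC3 had 13.94 (8.12 to 22.33) and BIRC2 12.17 (6.96 to 19.76). TRAF2 had 6.91 (3.31 to 12.71), CYLD 6.25 (3.0 to 11.5), TNFAIP3 6.03 (2.42 to 12.42), TRAF5 5.39 (2.33 to 10.63), TRAF6 4.74 (1.74 to 10.32) and TRAF3 3.85 (1.76 to 7.3). The median over all protein-coding genes was 2.41 and the upper quartile 4.47, which 10 and 9 of the members exceeded, respectively, TRAF3 being the exception. The intervals of all 9 pairs of neighbours in this order overlapped. Of all 45 pairs, 11 had intervals that did not overlap, namely TNIP1 against TRAF2, CYLD, TNFAIP3, TRAF5, TRAF6 and TRAF3, TRAF1 against CYLD, TRAF5, TRAF6 and TRAF3, and BIRC3 against TRAF3. The intervals cover counting error only, and adjacent summits of 1 called region are counted apart. All regions in the windows came from 99 called regions. With 1 region per call TNIP1 had 24, TRAF1 19, BIRC3 14 and BIRC2 13. TRAF2 and TRAF3 then had 9 each, CYLD 7, TNFAIP3 6, and TRAF5 and TRAF6 5 each. No intervals were computed for these smaller counts, so the 11 pairs should not be read as apart once summits of 1 call are merged. The share of such pairs among all genes was not computed either.

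**Figure D2:**
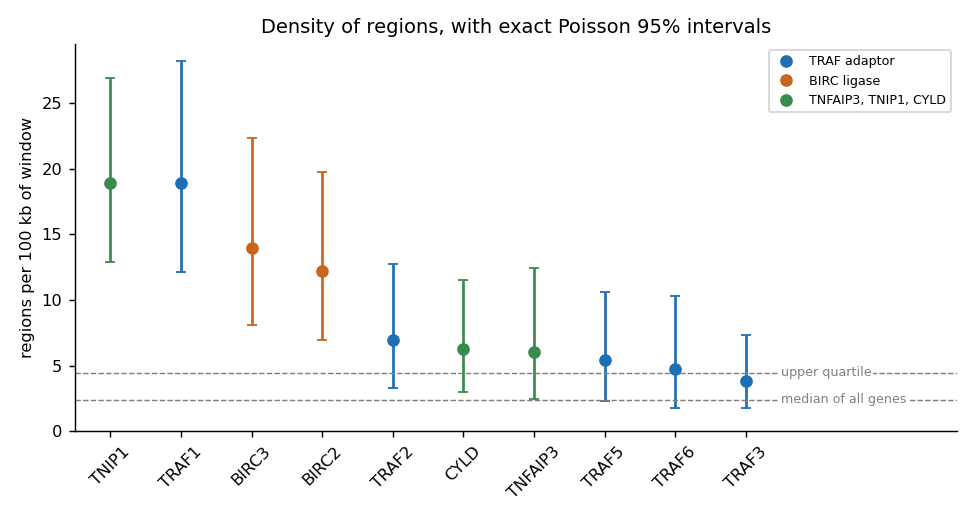
Regions per 100 kb of window for each member, ordered from high to low, with exact Poisson 95% intervals and the median (2.41) and upper quartile (4.47) of all protein-coding genes as dashed lines. TNIP1 and TRAF1 stand highest, near 19 per 100 kb, and TRAF3 alone lies under the upper quartile.

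Over the union of the windows the density was 8.91 regions per 100 kb, with 15 regions counted in the windows of both BIRC2 and BIRC3. Of the promoter regions, 24 belonged to the members themselves and 14 to other protein-coding genes, and 85 regions were distal. Of the distal regions 6 lay within 1 kb of the TSS of a non-coding gene. Promoter regions of TRAF2, TRAF6, BIRC2, TNFAIP3, TNIP1 and CYLD also lay that near to one. Among them, the strongest of CYLD lay near the start of CYLD-AS1 and that of TNFAIP3 near the start of WAKMAR2. The median score was 37.8 over all regions in the windows and 31.6 over the list, and for distal regions 31.6 and 25.7. Among distal regions of the members 31 of 85 scored above 45.8, the upper quartile of distal regions in the list. The median depended on the part of the list used. Among regions scoring above the list median it was 67.8 for the members and 76.7 for the list. In 5 members, TRAF1, TRAF3, TRAF5, TNFAIP3 and TNIP1, the strongest distal region scored above the strongest promoter region of the gene.

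**Figure D3:**
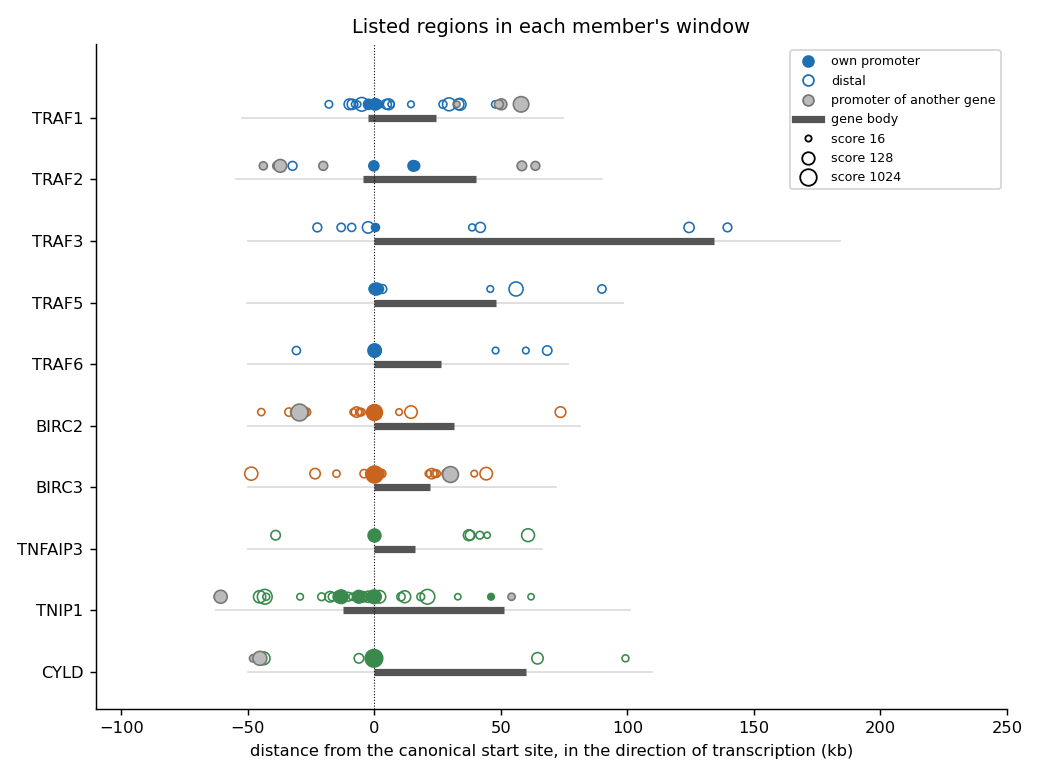
Listed regions in the window of each member, by distance from the TSS of the canonical transcript in the direction of transcription (kb). Symbol area grows with the log2 of the score, filled symbols are the member's own promoter regions, open symbols distal regions, and grey symbols promoter regions of other genes. TNIP1 and TRAF1 have regions along the gene and upstream of it, and the body of TNFAIP3 (dark bar) holds none.

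TRAF1, which has no RING domain and pairs with TRAF2, lies at chr9:123664671-123691451 on the minus strand. Its promoter regions scored 82.1 in intron 1, 276 bp from the canonical TSS, 47.4 at the outermost TSS and 33.1 in intron 2. A distal region of 214.1 (chr9:123693833-123694333), 2632 bp upstream of the outermost TSS, was stronger than all of these. The next distal regions scored 153.6 (chr9:123659346-123659846), between TRAF1 and PHF19, and 95.0 (chr9:123654961-123655461), inside PHF19. Of its 24 regions 17 were distal, 6 of them in the TRAF1 gene body. The strongest region of the window, 559.4, is a promoter region of the neighbour PHF19.

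TRAF2, the adaptor that recruits cIAP1 and cIAP2, lies at chr9:139776364-139821059 on the plus strand. The region at its canonical TSS scored 47.4 (chr9:139780488-139780988). The 2 other promoter regions, of 55.8 and 42.5, lie in intron 4, 15342 and 15967 bp from that TSS, beside a start annotated for a transcript without a defined coding sequence. When the outermost TSS alone was used, TRAF2 was the only member without a promoter region. It had 1 distal region, of 31.6, inside MAMDC4, and the strongest region of its window, 145.5, is a promoter region of PHPT1.

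TRAF3, which with TRAF2 targets NIK for degradation, lies at chr14:103243786-103377837 on the plus strand and spans 134052 bp. Its single promoter region scored 24.3 (chr14:103243576-103244076) and holds 100 CpG dinucleotides, against a median of 36 for promoter regions in the list. The strongest region of the window, 80.3, lies 2500 bp upstream (chr14:103241036-103241536), near the TSS of a non-coding gene. The next ones scored 50.7 in intron 10 and 47.4 in intron 1, the latter 41884 bp into the gene. With a promoter window of 2.5 kb the value of TRAF3 was 80.3, above that of TRAF2.

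TRAF5, another adaptor of the TRAF family, lies at chr1:211499957-211548288 on the plus strand. Its 3 promoter regions, of 30.1, 71.3 and 98.8, are summits of 1 called region that runs from upstream of the gene into intron 1, and the strongest is 875 bp from the canonical TSS. With a window of 500 bp the value was therefore 71.3. A stronger region of 264.2 (chr1:211555907-211556407) lies downstream of the gene, 13886 bp from the nearest protein-coding TSS, at the start of the non-coding gene LINC00467. The other distal regions scored at most 31.6.

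TRAF6, a RING ligase used by CD40, LMP1 and Toll-like receptors, lies at chr11:36505319-36531822 on the minus strand. Its promoter regions scored 188.7 (chr11:36531501-36532001) and 52.4 (chr11:36530991-36531491) and also lie within 1 kb of a TSS of RAG1, so that either gene may be counted for them. Together these promoter regions held 71.1% of the summed scores of the window. The gene body held no distal region. The 4 distal regions scored from 17.3 to 37.8, the strongest of them inside PRR5L (chr11:36463270-36463770).

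BIRC2 and BIRC3 lie side by side on the plus strand of chromosome 11, BIRC3 at chr11:102188215-102210134 and BIRC2 at chr11:102217942-102249401. Each had 1 promoter region, centred 9 and 8 bp from its canonical TSS and scoring 1226.8 and 680.2, respectively. These promoters differ in sequence. The BIRC2 region holds 68 CpG dinucleotides and no NF-kB match, whereas the BIRC3 region holds 31 and 2 matches. The BIRC2 region holds a match to TGACGTCA, the cyclic AMP response element. The BIRC3 region holds 1 match each to the PU.1 motif GAGGAAGT, the IRF motif TTTCNNTTT and the RUNX motif TGTGGTT. Distal regions of 64.3, 42.5 and 27.2 follow in intron 1 of BIRC3. The strongest distal regions were one of 165.8 far upstream of BIRC3 (chr11:102139277-102139777) and one of 125.7 in intron 3 of BIRC2 (chr11:102232154-102232654). Between the genes lies a region of 44.2 with 2 NF-kB matches (chr11:102216610-102217110), 1082 bp from the nearest BIRC2 TSS and thus just outside the promoter limit.

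TNFAIP3 lies at chr6:138188351-138204451 on the plus strand. Its single promoter region (chr6:138188082-138188582) scored 145.5 and holds 3 NF-kB matches, the nearest 2 bp from the centre, and 60 CpG dinucleotides. No region was listed in the gene body. Apart from 1 region of 39.4 upstream, the distal regions form a group 3′ of the gene, at 37318, 37860, 41664, 44565 and 60737 bp from the canonical TSS with scores of 64.3, 42.5, 22.8, 16.0 and 147.5. The last of these (chr6:138248883-138249383) scored slightly above the promoter and holds an NF-kB match of the same 10 bases as 1 of those in the promoter.

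TNIP1 lies at chr5:150409506-150473138 on the minus strand and had the most regions, 17 of 31 in its body. Its 6 promoter regions fall at separate starts: 216.3 and 69.6 at the canonical TSS, 135.5 at TSSs about 6 kb upstream, 21.4 and 207.7 near the outermost TSS, 12543 bp upstream, and 17.3 at the start of a retained-intron transcript near the 3′ end. The CpG content of these starts differed, with 49 in the region of 216.3 and 10 and 5 in those of 135.5 and 207.7. The strongest distal regions scored 378.3 (chr5:150503705-150504205), inside the neighbour ANXA6, 364.3 (chr5:150439392-150439892), in intron 5 of TNIP1, and 129.6 (chr5:150458361-150458861), in intron 1. Both the first and the second of these exceeded every promoter region of the gene.

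CYLD lies at chr16:50775961-50835846 on the plus strand. The region at its start (chr16:50775553-50776053) scored 1893.6 and is flanked by promoter regions of 20.0 and 55.8 from the same called region. The 3 promoter regions together made up 76.9% of the summed scores of the window. The rest of the 59886 bp gene held no further region. The strongest distal regions, of 145.5 (chr16:50731938-50732438) and 78.5 (chr16:50840209-50840709), lie inside NOD2 and downstream of CYLD near the start of the non-coding gene LINC02168, and 1 of 39.4 lies 6097 bp upstream of the nearest CYLD TSS. A NOD2 promoter region in the same window scored 255.4.

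Of all regions in the windows, 29 held a match to the NF-kB consensus on either strand (23.6%, exact binomial 95% interval 16.4 to 32.1), against 17.9% of the 49997 listed regions without N. The interval holds the share of the list. With a stricter consensus it does not, since 18.7% of the regions held a match (interval 12.2 to 26.7), against 11.5% of the list. Among distal regions the share was 14.1% (12 of 85, interval 7.5 to 23.4), against 16.1% of distal regions in the list. Among the 38 promoter regions in the windows, own or of other genes, it was 44.7% (17, interval 28.6 to 61.7), against 21.6% of promoter regions in the list, and 11 of the 24 promoter regions of the members themselves held one. At least 2 matches were found in 10 regions of the windows, and in 4.24% of the list. Matches in the promoter regions of the members were found for TRAF1, TRAF2, TRAF3, BIRC3, TNFAIP3, TNIP1 and CYLD, and none for TRAF5, TRAF6 and BIRC2. Those of TRAF2 lay in its 2 regions in intron 4, and the region at its canonical TSS held none. Counted over whole windows, TNIP1 had 9 regions with a match, TRAF2 6, CYLD 4, TRAF1 and TRAF3 3 each, and BIRC2, BIRC3 and TNFAIP3 2 each. No match says only that these letters are absent from these regions, and a match is no evidence of binding.

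**Figure D4:**
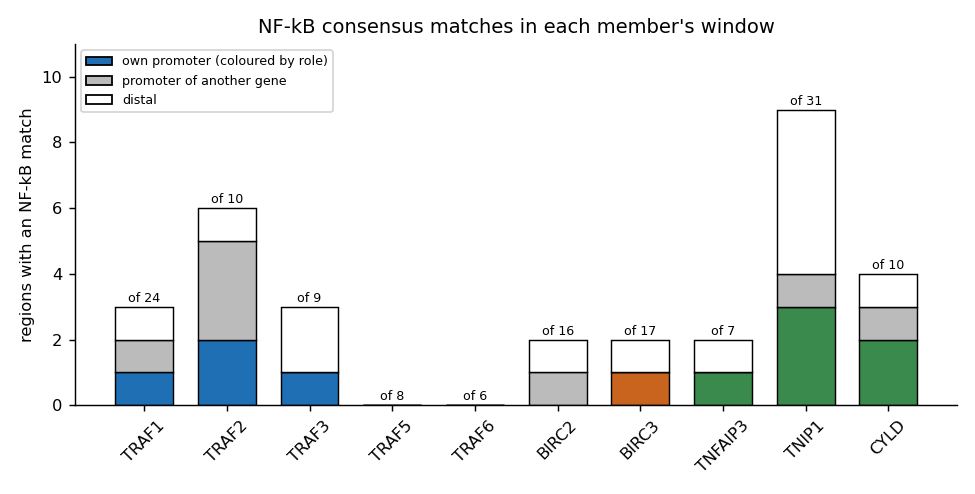
Number of regions with an NF-kB consensus match in the window of each member, split into own promoter regions (coloured), promoter regions of other genes (grey) and distal regions (white), with the number of regions in the window above each bar. TNIP1 has 9 of 31, TRAF2 6 of 10, and TRAF5 and TRAF6 none.

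Some 10-base words recurred among the matches, and part of their occurrences are in the sequences above. They were picked after the matches were seen. GGAAATCCCC, or its reverse complement GGGGATTTCC, stood in 6 regions of the windows, the promoter regions of TRAF1, TRAF3, BIRC3 and TNFAIP3, the distal region 3′ of TNFAIP3 and the TNIP1 region shown above. It was in 208 listed regions (0.416%). GGAAAGTCCC, or GGGACTTTCC, stood in 5 regions, each a promoter region of a different member: TRAF2, TRAF3, TNFAIP3, TNIP1 and CYLD. It was in 270 listed regions (0.54%). TRAF2 has this word 2 times within the stretch shown, and the promoter regions of TNFAIP3 and TRAF3 hold both words. GGAAATTCCC and GGAATTCCCC stood in 3 regions each, and in 0.288% and 0.292% of listed regions, respectively. GGAGTTCCCC stood in the BIRC3 promoter region and in the region upstream of BIRC2, and in 0.326% of listed regions. At the upstream starts of TNIP1 the matches overlap in palindromic runs, GGGGAATTCCCC and GGGAAATTCCC, so that several counted matches there cover the same bases.

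Over promoter and distal regions together, most other consensus matches were near the share of the list. RBPJ (GTGGGAA), the DNA-binding partner of the viral protein EBNA2, was matched in 13.0% of the regions in the windows against 10.8% of the list, EBF1 (CCCNNGGGA) in 16.3% against 12.7%, IRF (TTTCNNTTT) in 20.3% against 21.7%, AP-1 (TGANTCA) in 17.9% against 16.9%, RUNX in 10.6% against 11.6%, SP (GGGGCGGGG) in 8.1% against 10.1% and PU.1 in 7.3% against 5.14%. The octamer ATTTGCAT was in 7.3% (interval 3.4 to 13.4) against 3.3% of the list. Each of these intervals but that of the octamer held the share of the list. All 14 motifs were also compared by class, and intervals take no account of the number of comparisons. PU.1 and the octamer are named here because an interval of each missed the share of the list. PU.1 was matched in 15.8% of promoter regions (6 of 38, interval 6.0 to 31.3), against 4.28% of those in the list. In distal regions it was matched in 3.5%, against 5.56%. The octamer was in 9.4% of distal regions (interval 4.2 to 17.7), against 3.89%, and in 2.6% of promoter regions, against 2.09%. The ETS motif CCGGAAGT was in 0 of all regions in the windows. This allows a share of up to 2.44% by 3 counts and 3.0% by the exact interval, against 2.76% of the list. For promoter regions alone the exact interval reached 9.3%, against 6.77% of those in the list. CTCF and the cyclic AMP response element were matched in 2 regions each, and NRF1 (GCGCATGCG) and YY1 (AAGATGGCG) in 1 each. No region had an NF-kB match that overlapped an RBPJ match. Within the windows, RBPJ matches stood in 6 regions of TNIP1, 3 of TRAF1 and of CYLD, 1 each of TRAF2, TRAF5, TRAF6 and TNFAIP3, and none of TRAF3, BIRC2 and BIRC3. The octamer stood in 3 regions of TNIP1 and 2 of TRAF6, and in none of TRAF1, TRAF2 and TRAF3.

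**Figure D5:**
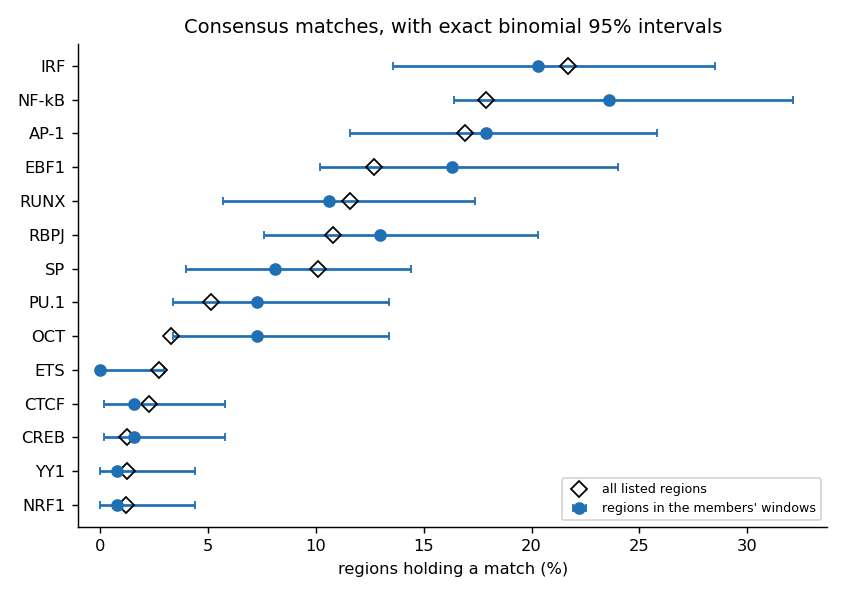
Share of regions (%) holding a match to each of 14 consensus motifs, for the regions in the windows of the members (points, exact binomial 95% intervals) and for all listed regions without N (diamonds). The share of the list lies inside the interval for all motifs but the octamer (OCT), where it lies just below; for ETS no region of the members holds a match.

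Of 58 other genes of the pathway, 50 had a promoter region. All 15 kinases and partners had one, strongest at TANK, which binds TRAF proteins (890.9), and TAB3, which binds ubiquitin chains for the kinase TAK1 (861.8). Of 21 further ubiquitin enzymes and binders 19 did (90.5%), led by the conjugating enzyme UBE2D3 (2701.8) and the deubiquitinase OTULIN (629.5), and TNIP3 and TRAF4 had none. Of 10 NF-kB subunits and inhibitors 9 did, with NFKBIZ at 606.8 and NFKBIB, in a region shared with SIRT2, at 244.4, while RELA had none. The receptors and ligand stood lower, with 7 of 12 (58.3%), near the 57.2% of all genes. Their strongest regions were those of TNFRSF1B (60.9) and TNFRSF13B (59.2), CD40 itself had 36.2, and 5 genes, among them CD27, CD40LG and LTBR, had none. Cell type markers were checked in the same way, and 8 of 10 B cell genes had a promoter region, against 0 of 4 T cell, 2 of 4 myeloid (CD14 and LYZ, with scores of 33.1 and 18.7) and 0 of 4 erythroid genes.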

How the data were processed

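Single GM12878 cells were profiled by ATAC-seq without antibody staining. Per the study's methods, the authors aligned paired reads to hg19, filtered out duplicates, mitochondrial reads and reads of low quality, called summits on pooled single cells and kept the best by q-value, widened to a fixed length. Whether libraries that a later filter on single cells removed were in that pool is not stated outright. The submitters' processing notes list Bowtie2 2.1.0, Picard 1.79 and MACS2 (version not given in the sources used here). For each region the deposited value is the -log10 of its q-value. No reads are given, so the depth behind this list is unknown. For its single-cell sequencing in general, the paper states an average number of reads per cell. Cells with many fragments weigh more in the pooled calls.

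Regions were placed by their centre on GRCh37 with GENCODE 44 mapped to it (chromosomes 1 to 22 and X, with 20090 protein-coding symbols and all their TSSs). Regions up to 1 kb from any protein-coding TSS were promoter regions, and all others distal. Motifs were searched by consensus on both strands of each region. NF-kB was the 10-base consensus, and the 3 regions with N were left out. Intervals are exact binomial or exact Poisson at 95% and cover counting error only. With 1 pooled list no test between samples was made and no p-value is given. The members and gene lists were chosen with earlier results of these data known. The text names all members, their promoter regions and up to 3 of their strongest distal regions, and in each pathway list the 2 strongest promoter regions and up to 3 genes without one. CD40 and the features further named were chosen with their values in view. The alternatives varied the promoter window, the TSS set, the flank, the part of the list and the NF-kB match. The placement and motif searches were tested on simulated data. Scripts ran under Python 3.11.15 with pandas 2.3.3, scipy 1.17.1, numpy 2.4.6 and matplotlib 3.10.9.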

Additional observations from a re-analysis of the deposited data

How the results depend on the processing

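The count of members with a promoter region was 10 with windows of 500 bp and 2.5 kb, with TSSs of protein-coding transcripts alone and without the lowest score, and 9 with the outermost TSS (without TRAF2) or with scores above the list median (without TRAF3). The count of regions in the windows fell to 49 in the gene bodies alone and to 66 with scores above the list median. There the median score was 67.8, below the 76.7 of the list. The NF-kB share was 14.6% within 100 bp of the centre, against 8.96% of the list, and 14.1% without promoter regions, against 16.1%. With the stricter consensus it was 18.7% (interval 12.2 to 26.7), against 11.5% of the list, and with scores above the list median 30.3%, against 20.8%. Under the other alternatives it lay between 20.5% and 28.6%. CYLD, BIRC3 and BIRC2 had the 3 highest promoter scores in all 4 alternative promoter definitions, and TNIP1 had the most regions in all 6 alternatives of the windows. In the gene body alone TNFAIP3 had 0 regions and CYLD 1. Without reads, no limit of detection can be given, and a gene without a listed region is not thereby closed. Samples could not be left out in turn, because the list is pooled. No paired analysis was possible because all libraries belong to 1 group and the result comes from no test.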
